A study of Mus musculus with 6 samples.

Results

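The genes described here are the parts of the endothelin system and a set of flow-responsive genes of the endothelium: the ligand gene Edn1, the receptor genes Ednra and Ednrb, the converting enzyme genes Ece1 and Ece2, and Klf2, Klf4 and Nos3. They were chosen by symbol, for what they are known to do, and 7 of the 8 have a row among the 15330 genes of the table. Ece2 has none and is not analysed here. RNA was sequenced from hearts dissected from mouse embryos at embryonic day 9.5, in 3 libraries of H2-URI d/d hearts and 3 of wildtype hearts. In H2-URI d/d hearts both alleles lack 373 kb of the regulatory interval that precedes Hand2, a basic helix-loop-helix transcription factor gene, and the deletion was made with CRISPR-Cas9 in mouse embryos. Strain, the number of founder lines and whether a library pooled several hearts are not given in the labels, so the spread behind each p-value is that between libraries and may be technical. Each group held 2 libraries labelled F and 1 labelled M, read here as female and male, all in batch 1.

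Endothelin-1 is made as a long precursor and cut to the active peptide by endothelin converting enzymes. It acts through the G protein-coupled receptors encoded by Ednra and Ednrb. In the mouse embryo, signalling from Edn1 to Ednra patterns the neural crest of the pharyngeal arches and the outflow vessels, and Hand2 is one of the genes it switches on in the arches. Klf2 and Klf4 encode zinc finger transcription factors that endothelial and endocardial cells make under shear stress from flowing blood. They are known to raise Nos3, the endothelial nitric oxide synthase gene, and to lower Edn1.

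The windows before the transcription starts of the genes that passed the test, and that of Klf2, are shown because Klf factors act on CACCC boxes and because a MEF2 site in the Klf2 promoter is the known point of entry of the shear signal. Sequences are the 250 bases before a RefSeq start on GRCm38.p6, 5′ to 3′ on the strand of the gene. Capitals mark every match to the Klf core CACCC, which reads GGGTG on the other strand. In the Klf2 window they also mark the MEF2 core CTANNNNTAG. Ece1 has 4 listed starts, and the windows of 2 that hold a CACCC match and do not overlap are shown.
Edn1, chr13:42301226-42301475, + strand: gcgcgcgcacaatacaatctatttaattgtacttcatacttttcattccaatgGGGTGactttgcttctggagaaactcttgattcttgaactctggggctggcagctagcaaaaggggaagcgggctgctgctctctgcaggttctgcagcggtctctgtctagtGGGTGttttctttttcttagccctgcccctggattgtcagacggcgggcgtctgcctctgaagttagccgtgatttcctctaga
Ece1, chr4:137861987-137862236, + strand: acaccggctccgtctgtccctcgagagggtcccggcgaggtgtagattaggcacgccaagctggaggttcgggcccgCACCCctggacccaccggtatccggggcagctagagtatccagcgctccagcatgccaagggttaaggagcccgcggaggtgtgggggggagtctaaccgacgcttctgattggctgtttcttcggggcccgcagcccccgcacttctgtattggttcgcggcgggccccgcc
Ece1, chr4:137913308-137913557, + strand: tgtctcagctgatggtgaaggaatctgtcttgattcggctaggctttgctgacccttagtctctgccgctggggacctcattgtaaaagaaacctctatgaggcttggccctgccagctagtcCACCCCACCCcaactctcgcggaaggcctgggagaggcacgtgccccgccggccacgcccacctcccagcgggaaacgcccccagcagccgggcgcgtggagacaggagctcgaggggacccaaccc
Klf2, chr8:72318812-72319061, + strand: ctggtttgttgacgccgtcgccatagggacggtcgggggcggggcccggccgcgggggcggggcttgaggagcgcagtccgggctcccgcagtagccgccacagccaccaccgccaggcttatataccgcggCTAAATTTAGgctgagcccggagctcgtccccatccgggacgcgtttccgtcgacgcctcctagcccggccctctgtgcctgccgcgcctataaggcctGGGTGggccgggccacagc

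The Edn1 window held 2 CACCC matches, which begin 197 and 84 bases before the start, and the Klf2 window held 1, at 19 bases. The second Ece1 window held a pair side by side, at 127 and 122 bases. Of the 10 windows of the genes listed, 7 held CACCC, among them overlapping Ece1 windows that share a match. Those of Klf4, Ednra and the last Ece1 start, which are not shown, held none. Among all 32851 windows of this length, 52.0% held CACCC on either strand. The MEF2 core stood in the Klf2 window, 118 bases before the start, and in 3.20% of all windows. The AP-1 motif TGANTCA was held by 6.75% of all windows and by none of the member windows. The same was true of the GATA factor motif AGATAA, held by 9.99% of all windows. It was also true of CATCTG, an E-box of bHLH dimers, held by 14.4%. Both strands were read for each motif, and a match is a description of the letters only. Windows were matched by symbol for 7 of the 8 genes, with Ece2 among them and none for Nos3.

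The libraries held between 25583210 and 32043595 reads, recovered from the deposited values, and 206 to 9153 reads stood behind each value of the genes described. Hand2, the gene next to the deletion, had 1025, 1158 and 1163 normalized counts in deletion libraries, against 3911, 3789 and 4407 in wild-type libraries. Normalized counts are reads divided by a size factor for each library. Columns were given to samples by the code in the sample title. The names of 4 of the 6 files carry codes that the titles give to the other genotype, and for these 4 libraries the record and the title conflict. With the recorded assignment the log2 difference of Hand2 was 0.57, limma called 0 genes and 414 had an unadjusted p under 0.05. All results below rest on the titles. Over all 15330 genes, 467 passed limma at an adjusted p under 0.05, 237 higher and 230 lower in deletion hearts. This split was 393 to 209 when libraries were scaled to equal totals without haemoglobin, and 195 to 310 with the trend of length and GC content removed. All 10 cardiomyocyte markers and all 15 markers of endothelium and endocardium were measured. The endothelial markers had summed levels of 33739 to 35263 normalized counts in deletion libraries and 33947 to 36354 in wild-type libraries. Of the 15, 2 were higher and 3 lower, with a median log2 difference of −0.0017. Groups without overlap were found for 3 of them higher and 5 lower, against 12.9% and 14.5% of all genes. The sum thus combines markers that shifted in opposite directions. Primitive erythroid markers varied widely within both groups. Their sums were 86026 to 459726 normalized counts in deletion libraries and 120935 to 354083 in wild-type libraries. In such bulk samples, fewer cells of a type and less RNA per cell cannot be told apart.

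Deletion hearts held more Edn1 transcript and less Ece1 transcript than wild-type hearts. Edn1, the ligand gene, rose to 440 ± 56.3 normalized counts in deletion hearts, against 263 ± 29.0 in wild-type hearts (SD, n = 3 each), and Ece1, which encodes the enzyme that releases the active peptide, fell to 5408 ± 144 against 7876 ± 231. These 2 of 7 measured genes were past the threshold, 1 in each direction, where 3.05% of all genes were called, 1.55% higher and 1.5% lower. The receptors and the flow-responsive genes did not pass: Ednra and Nos3 had overlapping groups, and Ednrb, Klf2 and Klf4 had lower means. The 7 log2 differences had a median of −0.25, against −0.0073 over all genes.

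**Figure D1:**
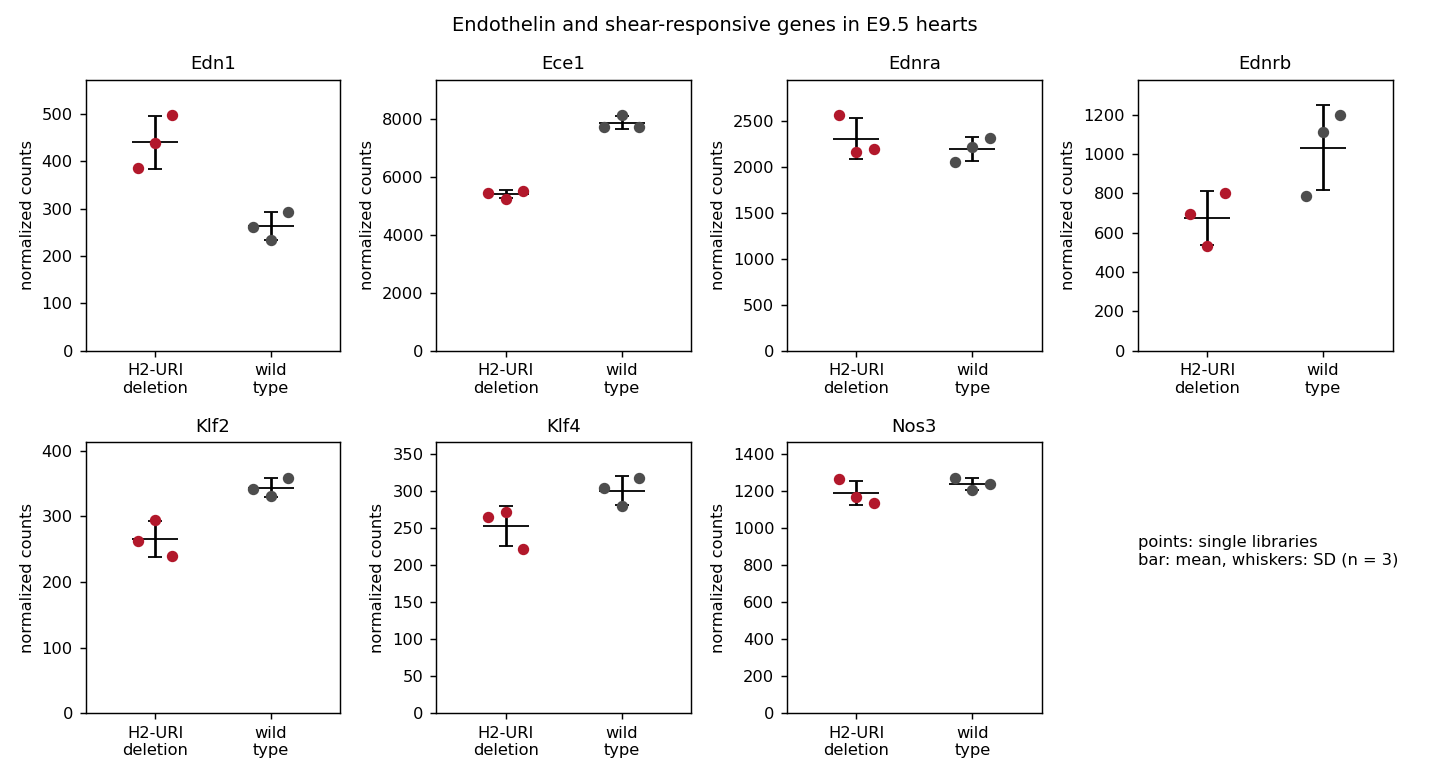
Normalized counts of the 7 genes in each library, deletion left and wild type right in every panel, with the mean and SD of 3 libraries. Edn1 stands higher and Ece1 lower in all 3 deletion libraries, Klf2 and Klf4 stand lower by narrow gaps, and the groups overlap for Ednra, Ednrb and Nos3.

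Edn1 had 385, 438 and 498 normalized counts in deletion libraries 1 to 3, against 262, 235 and 293 in wild-type libraries 1 to 3. Every deletion library was above every wild-type library, with a gap of 92.4 normalized counts between the groups. The log2 difference was 0.74 (SE 0.13, adjusted p = 0.0174, limma), a 1.67-fold level with a 95% interval of 1.37 to 2.03. The exact two-sided permutation test over the 6 libraries gave p = 0.1, the smallest that 3 against 3 allows. The call was lost without deletion library 2 (log2 difference 0.74, adjusted p = 0.0951, limma) or deletion library 3 (0.65, adjusted p = 0.0741, limma), and the difference stayed between 0.65 and 0.83 with any 1 library left out.

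Ece1 had 5451, 5247 and 5526 normalized counts in deletion libraries, against 7739, 8143 and 7748 in wild-type libraries. The groups lay 2213 normalized counts apart and the libraries of each group lay close together, with an SD of 2.67% of the mean in deletion hearts and 2.93% in wild-type hearts. The log2 difference was −0.54 (SE 0.06, adjusted p = 0.00219, limma), which left 68.7% of the wild-type mean. By p-value Ece1 was in place 33 among all genes and Edn1 in place 169. The Ece1 call held with each of the 6 libraries left out in turn, with adjusted p-values of 0.00172 to 0.0229 in limma. The deposited values are per gene, so the use of the 4 Ece1 starts was not measured.

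The ratio of Edn1 to Ece1 within a library does not depend on the size factor of that library. Per kilobase of the longest annotated transcript, Edn1 was at 15.9%, 18.8% and 20.3% of Ece1 in deletion libraries, against 7.63%, 6.49% and 8.51% in wild-type libraries. The means were 18.3% ± 2.22 in deletion hearts and 7.54% ± 1.01 in wild-type hearts (SD, n = 3 each). The ratio adds no independent evidence, since it was formed from the genes that passed.

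**Figure D2:**
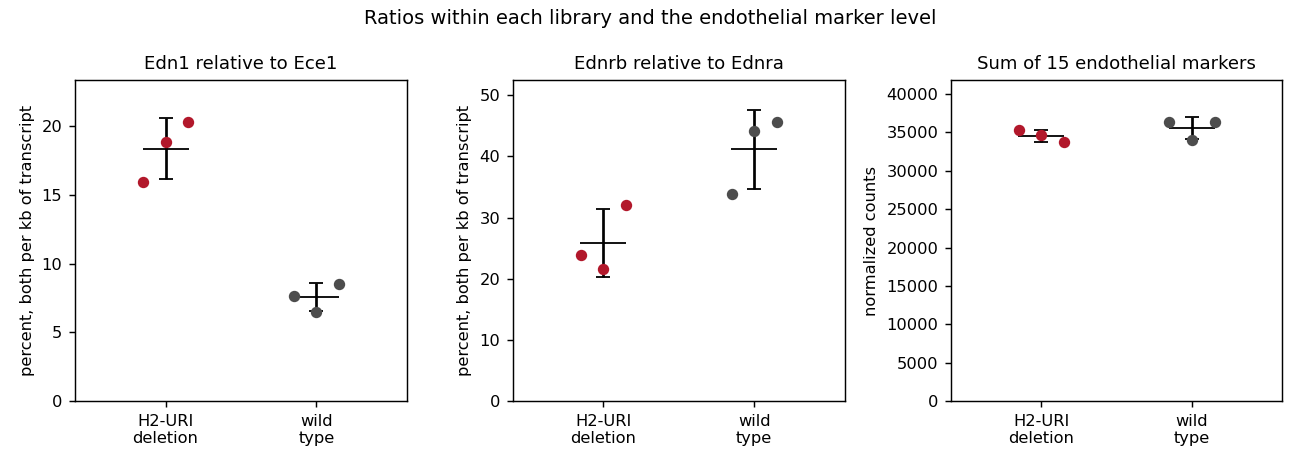
Edn1 as a percentage of Ece1 and Ednrb as a percentage of Ednra, both per kilobase of transcript, and the summed normalized counts of 15 endothelial markers, in each library with mean and SD (n = 3). The Edn1 ratio lies between 15.9% and 20.3% in deletion libraries and between 6.49% and 8.51% in wild-type libraries, while the endothelial sums overlap.

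Ednra, the receptor of cushion, neural crest and smooth muscle cells, had 2568, 2165 and 2197 normalized counts in deletion libraries, against 2059, 2223 and 2316 in wild-type libraries. The groups overlapped. The log2 difference was 0.07 (SE 0.08, adjusted p = 0.676, limma), with a 95% interval of −0.12 to 0.25, so a change by a factor under 0.923 or over 1.19 lay outside the interval.

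Ednrb, the receptor known from neural crest and endothelium, was the most variable of the genes described. It had 693, 531 and 800 normalized counts in deletion libraries, against 789, 1112 and 1199 in wild-type libraries. Deletion library 3 was just above wild-type library 1, and the other wild-type libraries were above all deletion libraries. The log2 difference was −0.61 (SE 0.18, adjusted p = 0.0907, limma), a larger difference than that of Ece1 but with a larger SE as well. Its SD on the log2 scale around the group means was 0.31, against a median of 0.10 over the 500 genes of nearest mean level, of which 99.2% had a smaller SD. The SE from limma does not rest on this SD alone, since it draws in part on genes of like level. Ednrb passed without wild-type library 1 (log2 difference −0.79, adjusted p = 0.0199, limma) and in DESeq2 on recovered reads with all 6 libraries (−0.61, adjusted p = 0.00608).

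Ednrb per kilobase was 23.8%, 21.6% and 32.2% of Ednra in deletion libraries, against 33.8%, 44.1% and 45.7% in wild-type libraries. The highest deletion library was below the lowest wild-type library by a narrow margin, and the exact two-sided permutation test gave p = 0.1, the smallest it can give. Markers of cells that can carry these receptors were read beside them. Of 10 neural crest and pharyngeal arch markers 8 were measured, 1 fell and 0 rose, with a median log2 difference of 0.08. The gene that fell was Ets1, which is also an endothelial gene, at 1812, 1742 and 1866 normalized counts in deletion libraries, against 2128, 2245 and 2317 in wild-type libraries. Ets1 made up most of the list's sum, which was 2205 to 2422 in deletion libraries and 2718 to 3040 in wild-type libraries. Dlx1, Dlx2, Dlx5 and Dlx6 had log2 differences above 0, of 0.87, 0.40, 0.55 and 0.59. Their levels were low, with means of at most 48.1 normalized counts in either group. Crabp1, Tfap2a and Alx1 lay below 0, at −0.60, −0.53 and −0.25, and none of these Dlx and other genes passed. Sox10, a defining gene of neural crest, has no row in the table. Of 10 cushion mesenchyme markers, 4 fell (Twist1, Msx1, Postn and Col3a1) and 0 rose, with a median log2 difference of −0.34. Groups without overlap were found for 5 of them lower and 0 higher, where 14.5% of all genes were lower and 12.9% higher without overlap. The sums overlapped, at 42374 to 44465 in deletion libraries and 41127 to 51901 in wild-type libraries. Vcan made up most of these sums, at 37392 ± 1257 in deletion hearts and 37650 ± 4629 in wild-type hearts. The part of these cells in the receptor values was not tested.

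Klf2 had 263, 294 and 240 normalized counts in deletion libraries, against 342, 331 and 359 in wild-type libraries. All deletion libraries were below all wild-type libraries, by 36.6 normalized counts at the nearest. This was a log2 difference of −0.38 (SE 0.11, adjusted p = 0.0931, limma), with a mean at 77.3% of wild type. It passed in none of the 21 alternatives that kept the groups, where adjusted p-values ran from 0.0525 to 0.452.

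Klf4 had 266, 272 and 222 normalized counts in deletion libraries, against 304, 280 and 318 in wild-type libraries. The groups were separated by 8.18 normalized counts, between deletion library 2 and wild-type library 2, and differed by −0.25 on the log2 scale (SE 0.12, adjusted p = 0.254, limma). The counting error alone of the lowest value, 206 reads in deletion library 3, was 6.97%. Groups without overlap were found for 4 of the 7 genes, Edn1, Ece1, Klf2 and Klf4, and for 27.4% of all genes (14.5% lower and 12.9% higher), so separation of the groups was common among genes.

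Nos3, which makes the vasodilator nitric oxide in endothelium, had 1262, 1168 and 1133 normalized counts in deletion libraries, against 1270, 1205 and 1237 in wild-type libraries. The groups overlapped, and libraries of a group differed by more than the group means. The log2 difference was −0.06 (SE 0.07, adjusted p = 0.660, limma) with a 95% interval of −0.22 to 0.10, which is 0.861-fold to 1.07-fold. With the trend of length and GC content removed it was −0.19 (adjusted p = 0.185, limma). Set against the endothelial marker sum, Nos3 stood at 34.4 ± 1.23 per 1000 marker counts in deletion hearts and 34.8 ± 0.700 in wild-type hearts (SD, n = 3 each). On the same scale Edn1 stood at 12.8 ± 1.92 in deletion hearts and 7.40 ± 0.598 in wild-type hearts, and Klf2 at 7.69 ± 0.729 and 9.68 ± 0.251 in the same order. The separation of the groups for Edn1, Ece1, Klf2 and Klf4 was present on this scale too. The marker sum in deletion hearts was 97.2% of wild type, so dividing by it changed the values little. It also combines markers that shifted in opposite directions, so this scale is no test of the part of endothelial content.

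**Figure D3:**
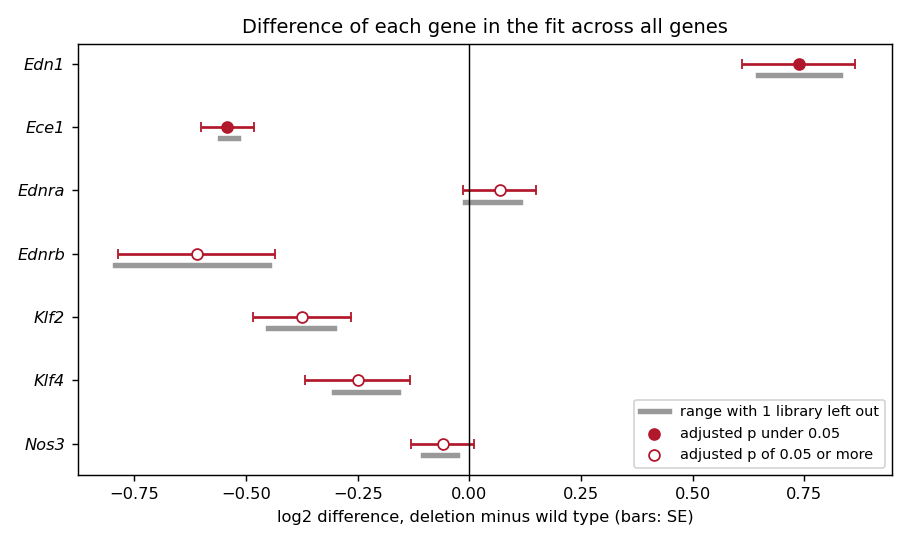
Log2 differences of the 7 genes, deletion minus wild type, with SE bars and, as grey lines, the range with 1 library left out. Edn1 lies to the right of 0 and Ece1 to the left, both past the threshold, and the Ednrb range from −0.79 to −0.45 is the widest.

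Klf2 and Klf4 are also known to respond to handling of tissue, as immediate early genes do. Of 18 immediate early and handling-responsive genes 14 were measured. Their summed level was 10803 to 11926 normalized counts in deletion libraries and 8826 to 9919 in wild-type libraries, with 2 higher (Jund and Ier3) and 0 lower. The median log2 difference of the 14 was 0.23. Of them 6 were higher and 0 lower without overlap, against 12.9% and 14.5% of all genes. Fos had 214, 188 and 146 normalized counts in deletion libraries, against 136, 123 and 171 in wild-type libraries, with overlap. Egr1, which is induced both by shear and by handling, had a log2 difference of 0.18 (adjusted p = 0.594, limma). Edn1 was higher where this list was higher, while Klf2 and Klf4 had lower means. The part of handling in these values was not tested. Epicardial and proepicardial markers, taken as a sum, were also higher where Edn1 was higher. Of 9 listed, 8 were measured, 2 rose (Krt19 and Gpm6a) and 0 fell, with a median log2 difference of 0.60. Without overlap 4 genes were higher and 0 lower, where 12.9% of all genes were higher. Wt1, Tbx18 and Tcf21 had log2 differences of 0.47, 0.72 and 0.88 and did not pass, and Upk3b was at −0.12. The summed level of the 8 was 4622 to 5971 normalized counts in deletion libraries and 2793 to 3645 in wild-type libraries. Krt19 was its largest part, at 2351 ± 27.2 in deletion hearts and 1299 ± 51.7 in wild-type hearts. The part of these markers in the Edn1 value was not tested. The 8 measured markers of pharyngeal and foregut epithelium had a median log2 difference of 0.51. They ranged from −0.37 for Cdh1 to 2.69 for Pax9 (adjusted p = 0.0715, limma). Pax9 was low, at 26.1, 4.45 and 3.66 normalized counts in wild-type libraries. Shh had a log2 difference of 0.85 although its deletion mean was 85.3% of the wild-type mean. Summed levels of the 8 overlapped, at 5297 to 5634 in deletion libraries and 4299 to 6458 in wild-type libraries. Of these 8, 0 passed and 0 had groups without overlap, and their part in the Edn1 value was not tested either.

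Per kilobase of the longest transcript, the order of mean levels in deletion hearts was Ece1 at 1123 ± 30.0 normalized counts, Ednra at 637 ± 61.8, Nos3 at 287 ± 16.2, Edn1 at 206 ± 26.3, Ednrb at 164 ± 33.0, Klf2 at 144 ± 14.8 and Klf4 at 83.7 ± 8.93 (SD, n = 3). In wild-type hearts it was Ece1 at 1635 ± 47.9, Ednra at 607 ± 35.9, Nos3 at 299 ± 7.94, Ednrb at 252 ± 52.6, Klf2 at 186 ± 7.59, Edn1 at 123 ± 13.6 and Klf4 at 99.4 ± 6.38. Edn1 thus stood above Ednrb and Klf2 in deletion hearts and below both in wild-type hearts. In deletion hearts Edn1 and Ednrb, and Ednrb and Klf2, did not differ beyond their spread. In wild-type hearts Nos3 and Ednrb, and Ednrb and Klf2, did not.

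Genes with a profile over the 6 libraries most like that of Edn1, among 11820 others with a mean of at least 100, were Ier3, Vldlr and Cpe. Likeness was the root mean square difference of log2 values centred per gene, which was 0.11 for each of them, against a median of 0.42. Ier3, an immediate early gene, had 216, 209 and 228 normalized counts in deletion libraries, against 126, 108 and 133 in wild-type libraries. For Klf2 the nearest were Zfp983 at 0.03, ENSMUSG00000117962 at 0.05 and Gem at 0.05. For Nos3 they were Osbpl5, Nup50 and Enoph1, all at 0.02, where a profile that hardly moves has many neighbours. With 6 libraries such likeness is a description only.

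Other genes of these pathways were read from 7 lists. Beside the genes described they hold 119 genes, of which 109 were measured, 2 rose and 8 fell. That is 9.17% called, against 3.05% of all genes, and the median log2 difference of the 109 was 0.08. Hand2 itself is among the 8. The lists were chosen with earlier results of these data known, so this share is a description only.

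In the endothelin system, the genes beside those described were the ligand gene Edn3 and the peptidase genes Kel and Mme, and 0 of 3 passed. Mme, neprilysin, a peptidase that breaks down peptides of this kind, had 1879, 1774 and 1954 normalized counts in deletion libraries, against 2271, 2140 and 2331 in wild-type libraries. These groups did not overlap, with a log2 difference of −0.27 (adjusted p = 0.0624, limma). Kel, a protease of red cells that can cut endothelin precursors, ranged from 145 to 781 in deletion libraries and from 127 to 432 in wild-type libraries. Edn3 was low, at 34.2 ± 7.38 in deletion hearts and 34.3 ± 16.5 in wild-type hearts (SD, n = 3 each).

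Of 18 measured genes of endothelin receptor signalling and its known dependent genes, 3 fell and 0 rose. Beside Hand2 these were Rgs4 and Rgs5, whose products switch off G proteins downstream of such receptors. Rgs4 had 173, 188 and 171 normalized counts in deletion libraries, against 420, 359 and 360 in wild-type libraries, a log2 difference of −1.09 (adjusted p = 0.00163, limma). Rgs5 had 766, 783 and 839 in deletion libraries, against 1108, 966 and 1076 in wild-type libraries (log2 difference −0.40, adjusted p = 0.0317, limma). The Gq subunit gene Gnaq was at 2838 ± 186 in deletion hearts and 2966 ± 405 in wild-type hearts. Dlx5 and Dlx6, homeobox genes that Edn1 induces in the mandibular arch, were low, at 35.5 ± 13.7 and 28.9 ± 12.2 in deletion hearts and 25.0 ± 13.8 and 17.7 ± 3.53 in wild-type hearts, and neither passed.

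Upstream of Klf2 and Klf4, the list of the MEKK3-ERK5-MEF2 cascade and the CCM complex that restrains it had 16 measured genes, of which 1 fell. This was Pdcd10, a CCM complex gene, at 1307 ± 100.5 in deletion hearts and 1629 ± 29.5 in wild-type hearts (log2 difference −0.32, adjusted p = 0.0496, limma), a call lost with most alternatives. Mef2c, a carrier of the shear signal to Klf2, was at 7048 ± 520 in deletion hearts and 6995 ± 962 in wild-type hearts. Of 15 measured mechanosensing genes 1 rose, Kdr, the VEGF receptor of the junctional sensing complex, at 5193 ± 299 against 4133 ± 146 (log2 difference 0.33, adjusted p = 0.0317, limma). The stretch-gated channel gene Piezo1 had a log2 difference of 0.28 (adjusted p = 0.0552, limma), with no overlap between groups.

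Of 27 measured flow-responsive genes and Klf targets beside the genes described, 1 rose and 2 fell. Their median log2 difference was 0.27, against −0.0073 over all genes. In 9 of the 27 the groups stood higher without overlap and in 3 lower, against 12.9% and 14.5% of all genes. Smad7, an inhibitor of TGF-beta signalling that shear induces, rose to 1231 ± 76.4 in deletion hearts, against 903 ± 82.1 in wild-type hearts (log2 difference 0.45). Ramp2, a partner of the adrenomedullin receptor, fell to 1128 ± 69.4 in deletion hearts, against 1705 ± 268 in wild-type hearts (log2 difference −0.59). Tek, the angiopoietin receptor gene, fell to 2670 ± 72.8 in deletion hearts, against 3401 ± 122 in wild-type hearts (log2 difference −0.35). Thbd, the thrombomodulin gene and a Klf2 target, had a log2 difference of 0.15 (adjusted p = 0.50, limma). Without wild-type library 3 or any 1 of the deletion libraries, Smad7, Ramp2, Tek, Kdr, Rgs5 and Pdcd10 were not called, and Pdcd10 was also not called without wild-type library 1.

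Around Nos3, 2 of 18 measured genes of nitric oxide synthesis and cyclic GMP signalling fell and 0 rose. Nostrin, which encodes an adaptor that draws the synthase from the membrane, had 10.6, 11.1 and 13.0 normalized counts in deletion libraries, against 51.1, 48.9 and 54.0 in wild-type libraries (log2 difference −2.06, adjusted p = 0.00373, limma). Ass1, an enzyme gene of the cycle that renews arginine for the synthase, had 61.2, 70.6 and 51.8 in deletion libraries, against 132, 150 and 137 in wild-type libraries (log2 difference −1.19, adjusted p = 0.00774, limma). The groups stood well apart for both genes, and with each library left out in turn Nostrin, Ass1 and Rgs4 stayed past the threshold. Nostrin was low, at a mean of 11.6 normalized counts in deletion hearts, and a filter at a mean of 50 removed it. Its log2 difference was −1.77 with a pseudocount of 5 and −2.23 after quantile normalization. Among 14 measured Krüppel-like factor genes beside Klf2 and Klf4, 0 passed in limma. Those with the largest means over all 6 libraries were Klf3, at 1769 ± 197 in deletion hearts and 1826 ± 232 in wild-type hearts, and Klf13, at 1892 ± 61.5 and 1683 ± 101 in the same order.

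**Figure D4:**
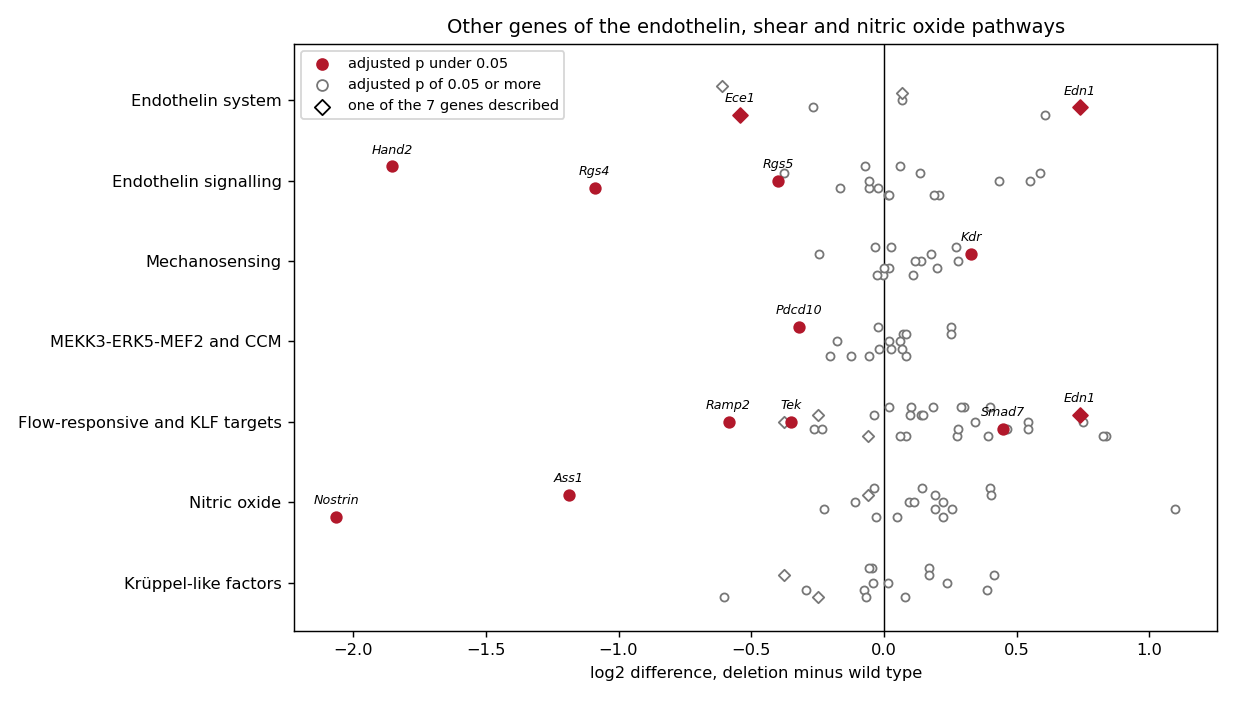
Log2 differences, deletion minus wild type, of all measured genes in the 7 pathway lists, with diamonds for the genes described and filled symbols for adjusted p under 0.05 in limma. Most genes lie near 0, and Hand2, Nostrin, Ass1 and Rgs4 lie farthest to the left among those called.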

How the data were processed

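Poly(A) RNA of embryonic hearts was sequenced in 3 H2-URI d/d and 3 wildtype libraries, made from 300 ng of total RNA each with a stranded kit, per the labels' protocols. Tools named in the submitters' processing notes are STAR 2.7.9a, bcl2fastq 2.20, DESeq2 1.30.1, Subread 2.0.1 and featureCounts, with mm39 and GRCm39 as builds. Not given in the sources used here were the annotation, strand setting and gene filter. Values as deposited are normalized counts, a signal per gene in which the authors divided reads by a size factor, per the file headers and names. Dividing by the smallest step in each column gave whole reads for 100% of values within 0.01.

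In R 4.3.3, limma 3.58.1 with a variance trend was fitted to log2(normalized count + 1) across all 15330 genes, two-sided and Benjamini-Hochberg adjusted at 0.05. The minimum mean of 10 removed no gene. Log2 differences and SE are on this scale, and the pseudocount shrinks those of low genes. The variance of each gene was drawn toward that of genes of like level, so SE and p-values do not rest on its own libraries alone. A longest transcript of GENCODE M21 (GRCm38) gave length and GC content for 98.1% of genes. That build differs from the authors', so no coordinates were joined. Alternatives were pseudocounts of 0.5 and 5, filters, scalings, no variance trend, the replicate block, a sex term, edgeR 4.0.16 and DESeq2 1.42.0 on recovered reads, files as recorded, length and GC, and each library left out. Permutation tests (scipy 1.17.1) enumerated all relabellings. The fit was tested on simulated data.

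The genes, lists and motifs were chosen with earlier results of these data known. All 7 measured genes are named; of the pathway lists, those past the threshold or, where there was none, the 2 with the largest means. Marker genes and a few others were named after their values were seen, such as Edn3, Egr1, Fos, Gnaq, Mef2c, Piezo1, Dlx5, Dlx6 and Thbd. The lists of pharyngeal epithelium, macrophage and erythroid markers had 0, 1 and 0 genes higher and 0 lower in each.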

Additional observations from a re-analysis of the deposited data

How the results depend on the processing

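The groups compared carry replicate numbers 1 to 3, but same-numbered libraries did not deviate together (correlations across 11821 genes of −0.117 to −0.0050, and 0 of 6 libraries closest to their own number), so the numbers do not pair them. With the replicate block 206 genes were called, with 0 pathway genes higher and 4 lower; with the length and GC trend also removed 290 were called; Edn1 and Ece1 passed in both. Without a variance trend 146 genes were called, with 0 of the 7 described genes higher and 0 pathway genes higher and 4 lower. DESeq2 called 1139 genes, with 2 of the 7 lower (Ece1 and Ednrb) and 8 pathway genes higher. Pathway genes called higher, 2 in the reported fit, numbered 6 with equal totals without haemoglobin, 5 after quantile normalization, 4 in edgeR and 1 with sex as a covariate. In the 4 female libraries 35 genes were called, with 0 of the 7 in either direction, and 0 pathway genes higher and 1 lower. With 1 library left out, 103 to 1161 genes were called, of the 7 genes 0 to 1 higher and 1 to 2 lower, pathway genes 0 to 7 higher and 4 to 9 lower, and Hand2 stayed between −1.90 and −1.79.

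Under the recorded file assignment 0 genes were called in any list, and among genes called in the reported fit signs turned for Hand2 (0.57), Edn1 (−0.23), Ece1 (0.22), Rgs4 (0.38), Rgs5 (0.16), Nostrin (0.74), Ass1 (0.26), Pdcd10 (0.16), Tek (0.0589), Kdr (−0.19), Ramp2 (0.13) and Smad7 (−0.21). Among named genes that were not called, they turned for Ednrb (0.22), Ednra (−0.12), Mme (0.10), Klf3 (0.14) and Klf13 (−0.11). Over the 21 alternatives that kept the groups, Ece1 was called in 20 and Edn1 in 17. Ece1 missed in the female libraries (adjusted p = 0.0644, limma). Edn1 missed there (0.125), without a variance trend (0.0652) and without deletion library 2 or 3. The direction held in all 21 for 6 of the 7 genes and in 20 for Ednra, which was −0.01 without deletion library 1. The causes of these shifts were not tested. Counting error of up to 6.97% limits Klf4, Klf2 and Edn1.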
